A study of Mus musculus with 383 samples.

Results

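Secreted modulators of Wnt and BMP signalling were followed in single tumour cells through 10 protein-coding genes chosen by name: Sfrp1, Sfrp2, Wif1, Dkk2, Dkk3, Notum, Wnt9a, Bmp4, Grem1 and Sostdc1. All 10 were present among the 49585 genes of the count table, and all 10 reached a level of 10 CPM (counts scaled to a total of 1000000 gene reads) in at least one of the sorted populations, the level at which a gene was taken as measured. The cells came from skin squamous cell carcinomas of mice whose alleles include Lgr5CreER, p53fl/fl and Rosa26-YFP+/+, so both populations share these alleles, and Cre is driven from Lgr5, a gene of hair follicle stem cells. Tumours were digested and YFP-positive cells, those in which Cre had acted, were sorted by surface Epcam, an epithelial adhesion protein, into Epcam-negative cells (310 wells) and Epcam-positive cells (70 wells) of one plate, with 2 wells set up without a cell and 1 well of 50 Epcam-negative cells. Libraries were made by Smart-seq2, which copies whole transcripts and attaches no molecular identifiers, and the study used them to examine states of the epithelial-mesenchymal transition. How many animals or tumours the cells came from is not given in the sources used here.

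Wnt proteins bind Frizzled receptors together with Lrp5 or Lrp6 and stabilise beta-catenin, while BMP proteins bind serine-threonine kinase receptors and act through Smad proteins. Both signals are tuned outside the cell by secreted proteins that capture the ligand, occupy a receptor or remove a lipid that the ligand needs. In skin, Wnt signals start hair follicle growth and BMP signals hold follicle stem cells at rest, and follicle epithelium and the dermal cells around it each secrete modulators of both.

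Promoter sequences are given for the genes that tilted most towards Epcam-negative cells and for one on the other side. RefSeq promoter entries on GRCm38.p6 matched 6 of the 10 genes (Sfrp2, Wif1, Dkk2, Grem1, Wnt9a and Bmp4), and Sostdc1, Sfrp1, Notum and Dkk3 are named without sequence. The 250 bases before the RefSeq start are printed 5′ to 3′ on the strand of the gene for Sfrp2 (chr3:83766071-83766320, plus strand), Dkk2 (chr3:132085042-132085291, plus strand) and Grem1 (chr2:113758649-113758898, minus strand), the genes with the highest ratios towards Epcam-negative cells, and for Wif1 (chr10:121033754-121034003, plus strand), which had a higher summed level in Epcam-positive cells. Capitals mark every match to one of 6 short motifs searched on both strands. The E-box that Snail and Zeb factors bind was searched as CACCTG, the motif of TCF and LEF factors as TCAAAG, a Smad-binding core of BMP response elements as GGCGCC, the AP-1 site as TGANTCA, the TEAD site as GGAATG and the TATA box as TATAAA.
Sfrp2: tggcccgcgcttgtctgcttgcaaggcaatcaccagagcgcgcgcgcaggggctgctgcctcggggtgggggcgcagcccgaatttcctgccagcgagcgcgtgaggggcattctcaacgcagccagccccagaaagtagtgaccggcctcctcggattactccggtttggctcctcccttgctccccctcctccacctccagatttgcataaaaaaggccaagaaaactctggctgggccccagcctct
Dkk2: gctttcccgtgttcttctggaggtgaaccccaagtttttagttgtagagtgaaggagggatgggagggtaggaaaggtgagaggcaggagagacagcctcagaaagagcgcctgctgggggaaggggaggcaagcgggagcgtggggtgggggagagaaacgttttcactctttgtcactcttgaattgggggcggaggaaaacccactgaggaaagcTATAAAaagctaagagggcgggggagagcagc
Grem1: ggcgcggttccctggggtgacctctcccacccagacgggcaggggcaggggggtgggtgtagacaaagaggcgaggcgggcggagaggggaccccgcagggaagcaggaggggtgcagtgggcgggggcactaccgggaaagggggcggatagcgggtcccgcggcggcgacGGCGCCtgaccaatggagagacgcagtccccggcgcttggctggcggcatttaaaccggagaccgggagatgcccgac
Wif1: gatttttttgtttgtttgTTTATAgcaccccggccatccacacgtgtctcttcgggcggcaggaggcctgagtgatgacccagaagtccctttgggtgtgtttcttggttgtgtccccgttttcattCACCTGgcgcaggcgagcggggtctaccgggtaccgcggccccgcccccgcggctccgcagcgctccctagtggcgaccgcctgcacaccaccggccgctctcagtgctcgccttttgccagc
The Sfrp2 window held none of the 6 motifs, the Dkk2 window 1 TATAAA, the Grem1 window 1 GGCGCC, and the Wif1 window 1 CACCTG and, on the opposite strand, 1 TATAAA. Among 27025 RefSeq promoter windows of the same length, 17.1% held CACCTG, 9.54% held GGCGCC and 12.97% held TATAAA. The Grem1 window was 72% G and C with 24 CpG dinucleotides, the Sfrp2 window 63.6% with 16, the Wif1 window 62.8% with 21 and the Dkk2 window 55.6% with 7, against medians of 52% and 6 over all windows. Of the windows that are not printed, that of Wnt9a held 2 GGCGCC and that of Bmp4 held 1 CACCTG. The TCF/LEF, AP-1 and TEAD letters, which 14.05%, 6.87% and 12.6% of all windows held, were in none of the 6. A match is a string of letters only and does not show binding.

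After filtering on depth, genes detected, mitochondrial reads and spike-in reads, 47 of 310 Epcam-negative wells and 8 of 70 Epcam-positive wells were left out, and all values that follow are over the kept cells. A kept Epcam-negative cell had 104330 to 900492 gene reads with a median of 414731, and a kept Epcam-positive cell 109743 to 730528 with a median of 413142. All 383 wells had distinct barcode pairs and none was shared. Gene reads per spike-in read, a measure of RNA content, had a median of 157.2 over Epcam-negative cells and 221.1 over Epcam-positive cells. Transcripts matched the sort: Epcam was at 22.7 CPM in Epcam-negative and 1069 CPM in Epcam-positive cells, the basal keratin Krt14 at 1836 CPM in Epcam-negative and 13311 CPM in Epcam-positive cells, and the mesenchymal filament gene Vim at 5809 CPM in Epcam-negative and 592 CPM in Epcam-positive cells. One of the wells labelled as holding 0 cells, from the Epcam-positive sort, went against its label, with 99241 gene reads from 8248 genes, and 69 of those reads came from Epcam. No comparison rests on that well. With no animal or culture named in the labels, each population counts as 1 sample, and no test between populations was possible. Intervals of levels and ratios cover counting error only, and those of shares treat cells as independent draws. Epcam-negative cells filled plate rows D to P and Epcam-positive cells rows A to C, and effects of the sort and of the row cannot be told apart.

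Of the 10 modulators, 7 reached a 2-fold higher level in Epcam-negative cells (Sfrp2, Dkk2, Grem1, Bmp4, Wnt9a, Notum and Dkk3) and 3 were higher in Epcam-positive cells by as much (Sostdc1, Wif1 and Sfrp1). The same criterion was met by 15.3% of 9574 measured genes towards Epcam-negative cells and by 12.9% towards Epcam-positive cells. The median log2 ratio, Epcam-negative over Epcam-positive after adding 1 CPM to each level, was 1.61 over the 10 modulators and -0.08 over all measured genes. The 10 genes were chosen with earlier results of these data known, so this background cannot show whether the list stands out. Sfrp2 and Sfrp1 lay on opposite sides, with log2 ratios of 6.70 and -1.91, whereas Dkk2 and Dkk3 lay on the same side, with 4.94 and 1.09. Presence of a gene in a cell here means at least 5 reads after each cell was thinned to 100000 gene reads, or 50 CPM, and by this limit Dkk3 alone was present in a majority of cells, in both populations. At a limit of 1 thinned read, Sfrp2 (51.7%) and Grem1 (57.4%) were also present in a majority of Epcam-negative cells, and Sostdc1 (67.7%) and Sfrp1 (66.1%) in a majority of Epcam-positive cells.

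**Figure D1:**
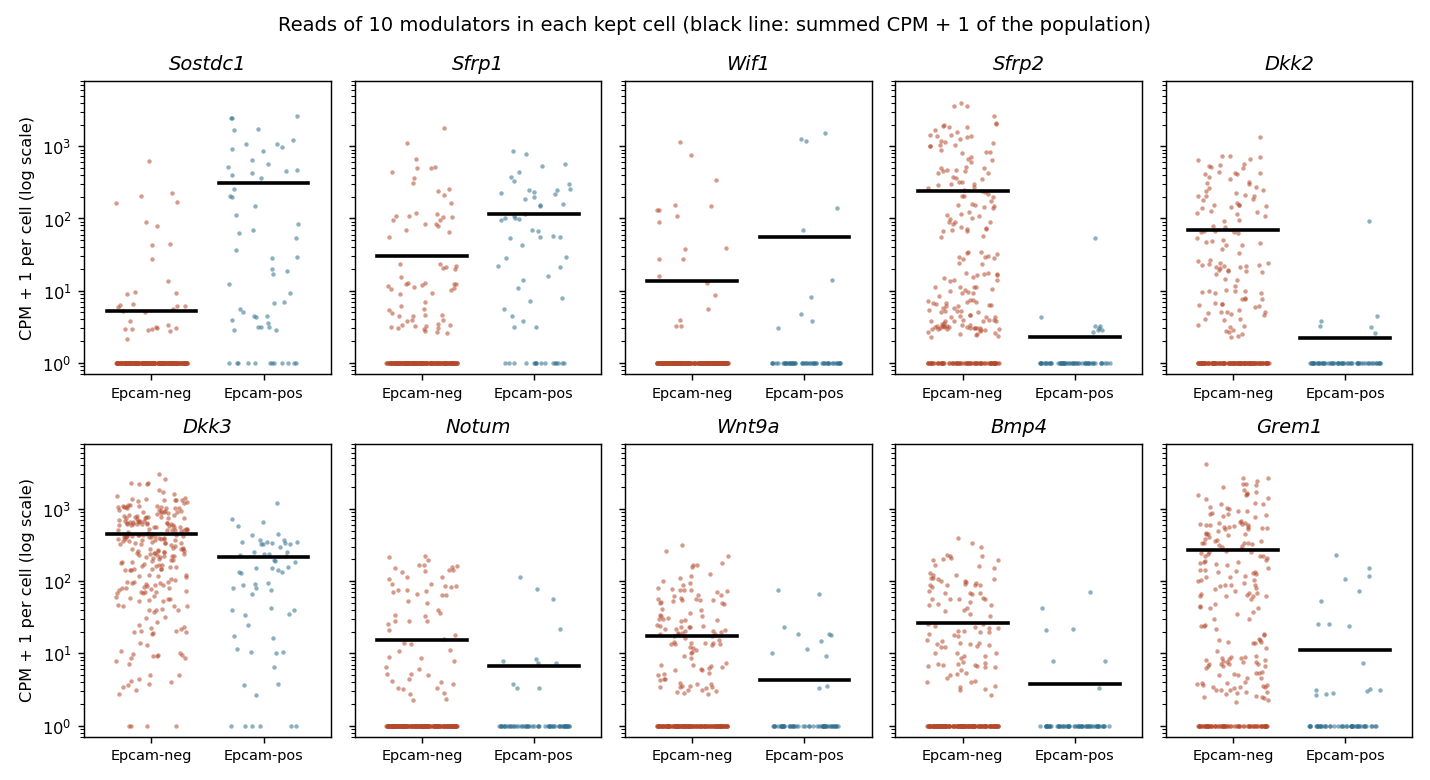
Level of each modulator in every kept cell as CPM + 1 on a log scale, Epcam-negative cells on the left and 62 Epcam-positive cells on the right of each panel; the black line is the summed level of the population + 1. Cells without a read lie at 1; the highest single cells reach 4171 CPM, of Grem1, among Epcam-negative cells and 2664 CPM, of Sostdc1, among Epcam-positive cells.

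The Wnt-binding proteins were split between the populations. Sfrp2 (chromosome 3, 83766321 to 83774316), a secreted Frizzled-related protein that binds Wnt ligands, had a lowest, median and highest value per cell of 0, 4.69 and 3976 CPM in Epcam-negative cells, and of 0, 0 and 52.9 CPM in Epcam-positive cells. Reads of Sfrp2 were found in 69.96% of Epcam-negative cells and in 12.9% of Epcam-positive cells (8 of 62), and the highest Epcam-positive cell lay far below the upper part of the Epcam-negative range. Summed, Sfrp2 was at 236.7 CPM (95% counting interval 233.8 to 239.6) in Epcam-negative and 1.29 CPM (0.881 to 1.82) in Epcam-positive cells, a log2 ratio of 6.70 (6.40 to 6.98). A single cell held 78.1% of the Epcam-positive reads, and without it that population was at 0.287 CPM. The antisense gene Gm26771 shares 347 exon bases with Sfrp2, and with no strand setting known their reads cannot be told apart there; Gm26771 itself was at 1.15 CPM in Epcam-negative cells and had 0 reads in Epcam-positive cells.

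Sfrp1 (chromosome 8, 23411502 to 23449632), a second secreted Frizzled-related protein, ran the other way. Its lowest, median and highest values were 0, 0 and 1795 CPM in Epcam-negative cells, and 0, 47.6 and 867 CPM in Epcam-positive cells. The ranges overlapped, and the highest single value was in an Epcam-negative cell, but 9.89% of Epcam-negative cells (26 cells) against 48.4% of Epcam-positive cells (30 cells) had Sfrp1 present. Summed levels were 29.3 CPM in Epcam-negative and 112.7 CPM in Epcam-positive cells, a log2 ratio of -1.91 (-1.98 to -1.83).

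Wif1 (chromosome 10, 121033960 to 121100650) encodes an inhibitory factor that binds Wnt ligands directly, and its level rested on very few cells. The highest Epcam-negative cell had 1146 CPM and the highest Epcam-positive cell 1545 CPM, while the median was 0 in both. It was present in 10 Epcam-negative cells (3.80%) and 5 Epcam-positive cells (8.06%), and the exact 95% intervals of these shares, 1.84 to 6.88% and 2.67 to 17.8%, overlapped. The sums were 12.5 CPM in Epcam-negative and 53.6 CPM in Epcam-positive cells, with a log2 ratio of -2.02 (-2.12 to -1.91). One cell held 41.7% of the Epcam-negative reads, and 5 cells held 99.4% of the Epcam-positive reads; without the top cell of each population Wif1 was at 7.31 CPM in Epcam-negative and 33.8 CPM in Epcam-positive cells. The direction also changed across the plate: in columns 1 to 12 Wif1 was at 7.81 CPM in Epcam-negative and 2.64 CPM in Epcam-positive cells, and in columns 13 to 24 at 19.1 CPM in Epcam-negative and 119.8 CPM in Epcam-positive cells.

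Dkk2 and Dkk3 carry the name of the Dickkopf family but differ in action, since Dkk2 binds Lrp5 and Lrp6 whereas Dkk3 is a divergent member not known as an Lrp6 ligand. Dkk2 (chromosome 3, 132085292 to 132180304) had a lowest, median and highest value of 0, 0 and 1353 CPM in Epcam-negative cells and of 0, 0 and 90.2 CPM in Epcam-positive cells. It was present in 57 Epcam-negative cells (21.7%) and 1 Epcam-positive cell (1.61%). The sums were 67.8 CPM in Epcam-negative and 1.25 CPM in Epcam-positive cells, a log2 ratio of 4.94 (4.63 to 5.22). That 1 cell gave 83.9% of the Epcam-positive reads, and the remaining Epcam-positive cells were together at 0.204 CPM.

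Dkk3 (chromosome 7, 112116017 to 112159057) was the most widespread of the 10 genes, and only 4 Epcam-negative and 6 Epcam-positive cells had no read of it. Its lowest, median and highest values were 0, 309.99 and 3000.3 CPM in Epcam-negative cells and 0, 131.9 and 1225 CPM in Epcam-positive cells. The distributions overlapped over most of their length. Dkk3 was present in 81.4% of Epcam-negative cells (95% interval 76.1 to 85.9%) and 66.1% of Epcam-positive cells (52.99 to 77.7%), and summed to 454 CPM in Epcam-negative and 212.1 CPM in Epcam-positive cells. The log2 ratio of 1.09 (1.05 to 1.14) was close to the 2-fold line, and with scaling to spike-in reads it was 0.74.

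Notum (chromosome 11, 120653788 to 120661175) encodes a carboxylesterase that removes the lipid of Wnt proteins. Its highest cell had 218.9 CPM among Epcam-negative and 111.6 CPM among Epcam-positive cells, with a median of 0 in both. The gene was present in 31 Epcam-negative cells (11.8%) and 2 Epcam-positive cells (3.23%). It summed to 14.1 CPM in Epcam-negative and 5.68 CPM in Epcam-positive cells, a log2 ratio of 1.18 (0.96 to 1.40), and 47.5% of the Epcam-positive reads came from 1 cell, without which that population was at 3.05 CPM. The ratio was 0.85 with spike-in scaling and 0.90 in plate columns 1 to 12. The antisense gene Notumos shares 708 exon bases with Notum and had 13 reads in each population, so the strand of some Notum reads is uncertain.

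The only Wnt ligand among the 10, Wnt9a (chromosome 11, 59306928 to 59333552), was among the lower of the genes in both populations. Reads were found in 42.6% of Epcam-negative and 19.4% of Epcam-positive cells, so that the median was 0 in both, with a highest value of 312 CPM in Epcam-negative and 73.7 CPM in Epcam-positive cells. It was present in 11.4% of Epcam-negative cells (30 cells) and 3.23% of Epcam-positive cells (2 cells). Summed levels were 16.6 CPM in Epcam-negative and 3.26 CPM in Epcam-positive cells, with a log2 ratio of 2.05 (1.79 to 2.30).

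On the BMP side, the ligand and both antagonists were distributed unevenly. Bmp4 (chromosome 14, 46383520 to 46390669), a BMP ligand, had a lowest, median and highest value of 0, 0 and 394 CPM in Epcam-negative cells and of 0, 0 and 69.4 CPM in Epcam-positive cells. It was present in 47 Epcam-negative cells (17.9%) and 1 Epcam-positive cell (1.61%). Its sums of 25.2 CPM in Epcam-negative and 2.74 CPM in Epcam-positive cells gave a log2 ratio of 2.81 (2.55 to 3.07). The gene Gm15217, on the opposite strand, shares 89 exon bases with Bmp4 and had 4 reads in Epcam-negative cells, against 0 in Epcam-positive cells.

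Grem1 (chromosome 2, 113746164 to 113758646), a secreted protein that binds and blocks BMP ligands including Bmp4, was among the highest of the 10 genes in Epcam-negative cells. Its lowest, median and highest values were 0, 14.3 and 4171 CPM in Epcam-negative cells and 0, 0 and 227.96 CPM in Epcam-positive cells. Grem1 was present in 42.97% of Epcam-negative cells (interval 36.9 to 49.2%) and in 8.06% of Epcam-positive cells (5 cells, interval 2.67 to 17.8%). The sums were 270.2 CPM in Epcam-negative and 10.1 CPM in Epcam-positive cells, a log2 ratio of 4.61 (4.45 to 4.78).

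Sostdc1 (chromosome 12, 36314139 to 36318452), a secreted protein that antagonises BMP ligands and can also bind Lrp5 and Lrp6, had the strongest tilt towards Epcam-positive cells among the 10. Its lowest, median and highest values were 0, 0 and 623 CPM in Epcam-negative cells and 0, 23.3 and 2664 CPM in Epcam-positive cells. Epcam-positive cells themselves were uneven, with a lower quartile of 2.17 CPM and an upper quartile of 443 CPM. Reads were found in 33 Epcam-negative cells and in 50 of the 62 Epcam-positive cells, and Sostdc1 was present in 8 Epcam-negative cells (3.04%) and 28 Epcam-positive cells (45.2%). With sums of 4.29 CPM in Epcam-negative and 311 CPM in Epcam-positive cells, the log2 ratio was -5.88 (-6.00 to -5.77).

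**Figure D2:**
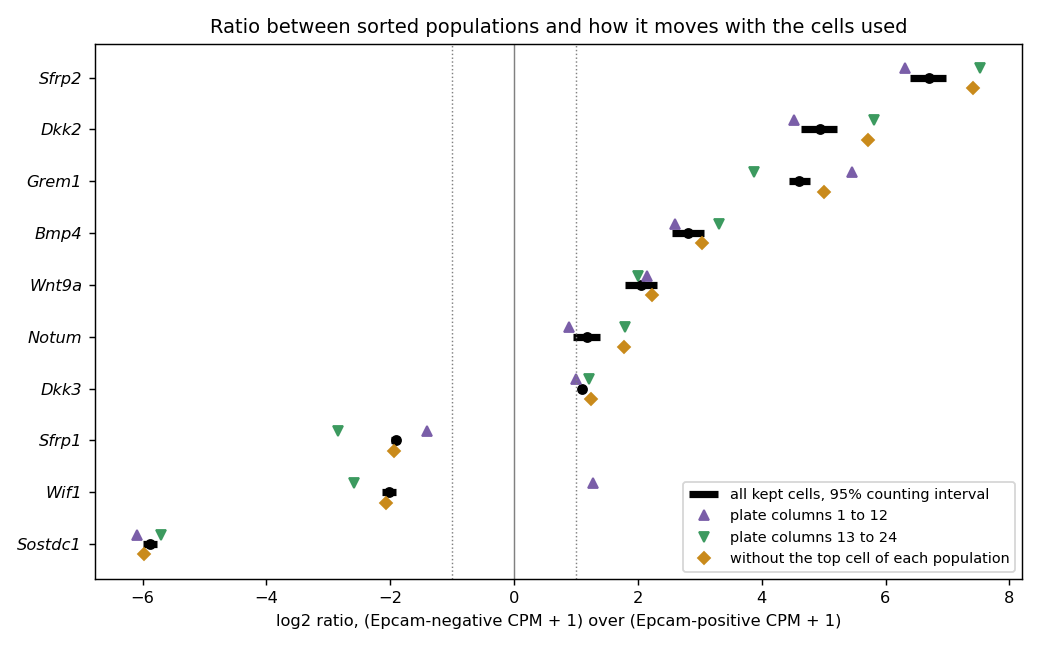
The log2 ratio of Epcam-negative over Epcam-positive summed levels for each of the 10 genes (black, with its 95% counting interval), in the left and right parts of the plate (triangles) and without the top cell of each population (diamonds); dotted lines mark 2-fold. The triangles of Wif1 lie on opposite sides of 0, at 1.28 and -2.59, whereas those of the other 9 genes share a side.

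Levels of different genes were compared after division by exon length. In Epcam-negative cells the order of CPM per kilobase was Dkk3 (135.1), Sfrp2 (109.9), Grem1 (65.1), Dkk2 (18.3), Bmp4 (11.2), Sfrp1 (6.70), Notum (5.85), Wif1 (5.14), Wnt9a (4.99) and Sostdc1 (2.41). The counting intervals of Wif1 and Wnt9a overlapped, and those of the other neighbours did not. In Epcam-positive cells Sostdc1 (174.8 CPM per kilobase), Dkk3 (63.1), Sfrp1 (25.8) and Wif1 (22.1) came first, and the other 6 lay between 0.337 and 2.44. There, neighbours overlapped for Grem1 with Notum, Bmp4 with Wnt9a, Wnt9a with Sfrp2, and Sfrp2 with Dkk2.

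Single cells differed in how many of the 10 genes they carried. In Epcam-negative cells, 10 had none present and 110 (41.8%) had 3 or more, and in Epcam-positive cells 8 of 62 had none and 20 (32.3%) had 3 or more. At least one of Sfrp2, Grem1 and Dkk2 was present in 69.2% of Epcam-negative cells and 9.68% of Epcam-positive cells (6 cells), but only 15 Epcam-negative cells (5.70%) had all 3. Conversely, at least one of Sostdc1, Sfrp1 and Wif1 was present in 41 Epcam-negative cells (15.6%) and 42 Epcam-positive cells (67.7%). Both sets were chosen by the ratios between these populations, so the contrast of these shares follows from that choice.

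Pairs of the genes differed in how often they met in a cell. Among Epcam-negative cells, Sfrp2 and Dkk2 were present together in 29 cells, where the product of their single shares gives 18.9, and Grem1 and Wnt9a in 21 cells, where it gives 12.9. Sfrp2 and Grem1, both high in sum, were together in 31 cells, where the product gives 37.4. Among 62 Epcam-positive cells, Sostdc1 and Sfrp1 were together in 20, where the product gives 13.5, and their levels had a Spearman correlation of 0.40 over these cells. Across the pairs of Epcam-negative cells the coefficients were smaller, for instance 0.18 for Sfrp2 with Dkk2 and -0.09 for Sfrp2 with Grem1. These values describe cells that share a plate and differ in depth, and no test was made.

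**Figure D3:**
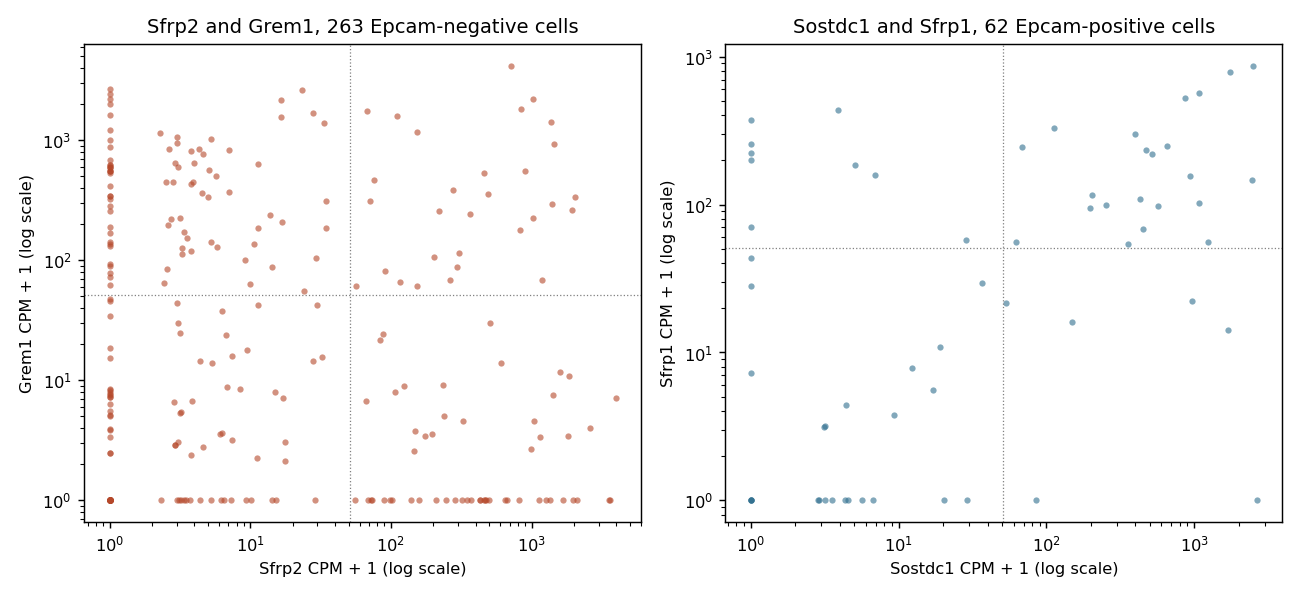
Levels of Sfrp2 and Grem1 in all kept Epcam-negative cells (left) and of Sostdc1 and Sfrp1 in 62 Epcam-positive cells (right), as CPM + 1 on log axes; each point is a cell and dotted lines mark 50 CPM. After thinning, both genes were present in 31 of the cells on the left and in 20 of those on the right.

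Epcam-negative cells were next divided by whether Krt14 was present (48.3% of them) or not, since the keratin marks cells that keep an epithelial transcript. Sostdc1 was at 9.09 CPM in cells with Krt14 and 0.122 CPM in those without, and 98.5% of its Epcam-negative reads fell in cells with Krt14. Wif1 was at 25.1 CPM with Krt14 and 1.55 CPM without, but was present in only 8 cells with Krt14 and 2 without, shares whose intervals overlapped, and without the top cell of each set it was at 14.02 CPM with Krt14 and 0.579 CPM without. Sfrp2 went the other way, at 123.8 CPM with Krt14 and 335 CPM without, and was present in 18.9% (12.5 to 26.8%) of cells with Krt14 and 46.3% (37.7 to 55.1%) of those without, intervals that did not overlap. Dkk2 was present in 14.96% of cells with Krt14 and 27.9% of those without, and these intervals overlapped. Summed Sfrp1 was 14.9 CPM with Krt14 and 41.8 CPM without, the opposite of its tilt between the sorted populations, although the intervals of its shares, 8.66% of cells with Krt14 and 11.0% of those without, overlapped. For Dkk3, Grem1, Wnt9a and Bmp4 the log2 ratio between cells with and without Krt14 lay between 0.07 and 0.20. Intervals of shares here and in the divisions below treat cells as independent, and their overlap is a description and no test.

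All 8 Epcam-negative cells with Sostdc1 present also had Krt14 present, 7 had Vim present and none had Epcam present. Their median levels were 166.9 CPM of Sostdc1, 6664 CPM of Krt14 and 6654 CPM of Vim.

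Itgb3, Itgav and Vcam1, integrin subunits and an adhesion receptor, gave further divisions of the Epcam-negative cells. In the 23 cells with Itgb3 present Grem1 was at 774 CPM, against 214.7 CPM in the 240 cells without, and it was present in 69.6% (47.1 to 86.8%) of cells with Itgb3 and 40.4% (34.2 to 46.9%) of those without. The log2 ratio of Grem1 was 1.85, and 1.68 without the highest cell of each set. Bmp4 was at 4.97 CPM with Itgb3 and 27.5 CPM without, and was present in 1 of the 23 cells against 46 of the 240, shares whose intervals overlapped. With Itgav present (190 cells) Grem1 was present in 47.9% and Dkk2 in 25.8% of cells, and without it (73 cells) Grem1 was present in 30.1% and Dkk2 in 11.0% of cells, with overlapping intervals for both genes. Wnt9a was at 26.4 CPM in the 87 cells with Vcam1 and 11.3 CPM in the 176 without, and Sfrp2 was present in 42.5% of cells with Vcam1 and 28.4% of those without, again with overlapping intervals. Grem1 was lower with Vcam1, at 213.3 CPM with it and 300.7 CPM without. It was present in 39.1% of cells with Vcam1 and 44.9% of those without, and these intervals overlapped. In the 11 Epcam-negative cells with Epcam transcript present, Sfrp2 was at 14.3 CPM, against 245.6 CPM in the rest, and a single cell held 83.1% of the reads of the 11, which without it were at 2.65 CPM.

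**Figure D4:**
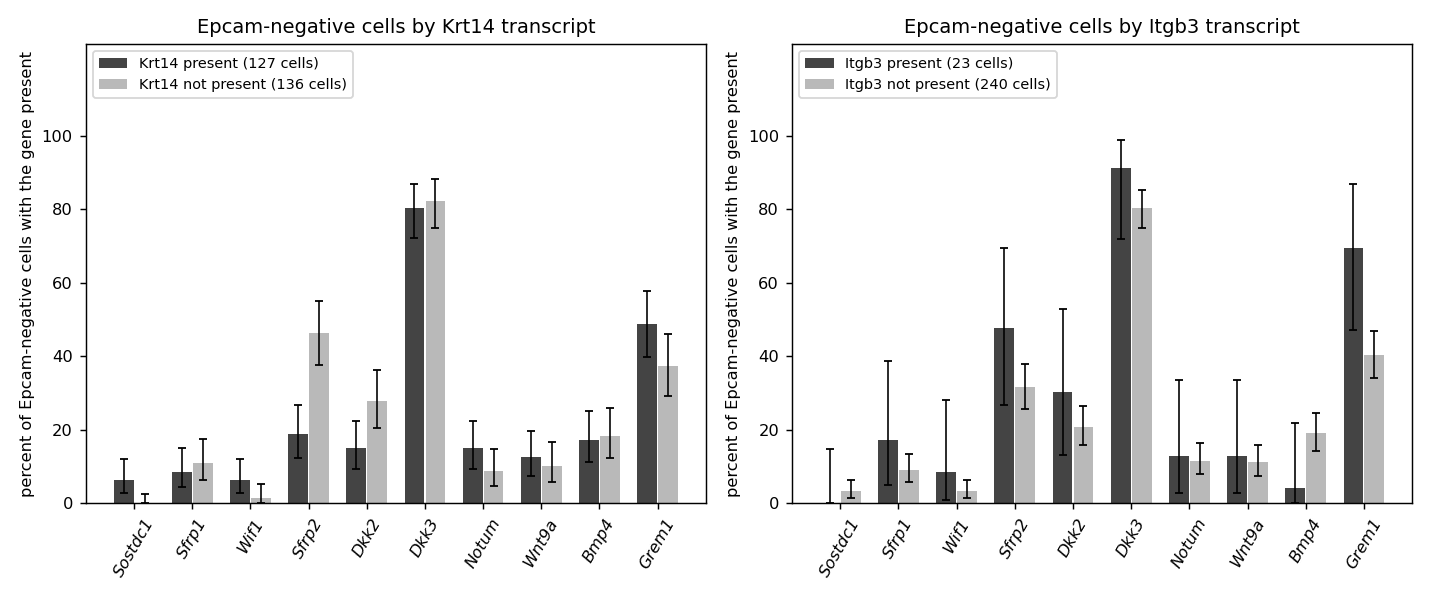
Percent of Epcam-negative cells with each gene present, divided by Krt14 transcript (left) and by Itgb3 transcript (right); dark bars are cells with the dividing transcript, light bars those without, and error bars are exact 95% binomial intervals. Sfrp2 stands at 18.9% with Krt14 and 46.3% without, and Grem1 at 69.6% with Itgb3 and 40.4% without.

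The rest of both pathways was read from lists of genes by role, of which those at 10 CPM or more in either population were measured. Other secreted Wnt modulators were low: of 14, only Apcdd1, a membrane-bound Wnt inhibitor, was measured, at 19.9 CPM in Epcam-negative and 5.31 CPM in Epcam-positive cells, where 1 cell held 79.5% of its reads. Among Wnt ligands, 4 of 18 were measured and 2 were higher by 2-fold or more in Epcam-positive cells, namely Wnt10a (30.9 CPM in Epcam-negative, 135.1 CPM in Epcam-positive cells) and Wnt4 (36.1 CPM in Epcam-negative, 109.01 CPM in Epcam-positive cells), with a list median of -1.17. Wnt5a, a ligand of the beta-catenin-independent branch, was at 154.5 CPM in Epcam-negative and 118.3 CPM in Epcam-positive cells, and Wnt7b at 7.26 CPM in Epcam-negative and 13.2 CPM in Epcam-positive cells. Wnt receptors were mixed, with 14 of 21 measured, of which 2 passed the 2-fold line towards Epcam-negative cells against 3 towards Epcam-positive cells. The shares of all measured genes past that line were 15.3% and 12.9%, in the same order. Counts this small cannot be set apart from those shares. Fzd2 was at 55.7 CPM in Epcam-negative against 10.9 CPM in Epcam-positive cells, and Ror1, a receptor for Wnt5a, at 12.2 CPM in Epcam-negative against 3.18 CPM in Epcam-positive cells. Lgr6, a receptor for R-spondins, was at 7.86 CPM in Epcam-negative and 60.1 CPM in Epcam-positive cells, and Fzd3 at 3.08 CPM in Epcam-negative and 16.4 CPM in Epcam-positive cells. Without the top cell of each population, Fzd3 was at 1.48 CPM in Epcam-negative and 7.03 CPM in Epcam-positive cells, under the minimum, and Ror1 was at 10.4 CPM in Epcam-negative and 0.780 CPM in Epcam-positive cells. The median of the receptors was -0.26 and became 0.49 when only genes at 50 CPM or more were used.

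Genes that beta-catenin signalling induces in many tissues had 5 of 10 measured, 1 higher in Epcam-negative and 4 higher in Epcam-positive cells. The 2-fold line was passed by 1 towards Epcam-negative cells against 2 towards Epcam-positive cells, and the median was -0.62. Nkd2, a feedback inhibitor, was at 13.6 CPM in Epcam-negative and 52.4 CPM in Epcam-positive cells and the transcription factor gene Tcf7 at 10.8 CPM in Epcam-negative and 27.2 CPM in Epcam-positive cells, whereas Myc was at 275.1 CPM in Epcam-negative and 106.5 CPM in Epcam-positive cells. Znrf3, which removes Frizzled receptors from the surface, was at 32.01 CPM in Epcam-negative and 49.9 CPM in Epcam-positive cells.

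Other BMP antagonists were higher in Epcam-negative cells in 8 of the 9 that were measured of 11, and 2-fold or more in 7, with a median of 2.49. Fstl1 was at 2105 CPM in Epcam-negative and 121.5 CPM in Epcam-positive cells, and Chrd, which captures BMP ligands, at 27.8 CPM in Epcam-negative and 1.127 CPM in Epcam-positive cells (0.611 CPM without the top cell). Bmper was at 14.96 CPM in Epcam-negative and 0.121 CPM in Epcam-positive cells, the Epcam-positive value from 3 reads, with a log2 ratio of 3.83 (3.56 to 3.96). Chrdl1 was at 18.4 CPM in Epcam-negative cells and had 0 reads in Epcam-positive cells, at least 152.5-fold higher when 3 reads over the Epcam-positive population are taken as the limit. That fold is without the 1 CPM added for log2 ratios such as that of Bmper. With it, the log2 ratio of Chrdl1 was 4.28. Fst, a binder of activins and some BMP proteins, went against the list at 430.0 CPM in Epcam-negative and 1399 CPM in Epcam-positive cells.

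Of other BMP ligands 3 of 10 were measured, with 1 higher by 2-fold or more, Bmp7, at 2.61 CPM in Epcam-negative and 58.3 CPM in Epcam-positive cells. Bmp3 was at 6.11 CPM in Epcam-negative and 10.7 CPM in Epcam-positive cells, with 45.7% of the Epcam-negative reads in 1 cell, and Bmp2 at 33.6 CPM in Epcam-negative and 27.5 CPM in Epcam-positive cells, and the list median was -0.72. Of the BMP receptors 6 of 9 were measured, with 1 higher by 2-fold or more in Epcam-negative cells and a median of 0.58: Acvrl1 was at 26.3 CPM in Epcam-negative and 6.20 CPM in Epcam-positive cells (3.86 CPM without the top cell), and Acvr2a, Acvr1 and Bmpr2 had log2 ratios of 0.79, 0.62 and 0.54. Among BMP-induced genes, 4 of the 7 measured of 11 were higher by 2-fold or more in Epcam-positive cells, and the median was -1.40. That median was -0.68 both with no minimum level and at a minimum of 50 CPM. Id1 was at 56.99 CPM in Epcam-negative and 243.2 CPM in Epcam-positive cells, Id2 at 54.3 CPM in Epcam-negative and 188.2 CPM in Epcam-positive cells, and Msx1 at 2.75 CPM in Epcam-negative and 12.3 CPM in Epcam-positive cells. Without the top cell of each population Msx1 was at 1.20 CPM in Epcam-negative and 6.21 CPM in Epcam-positive cells, under the 10 CPM minimum. Id3, the most abundant of the list, was at 1308 CPM in Epcam-negative and 825 CPM in Epcam-positive cells and was named after its values were seen. The inhibitory Smad7, which TGF-beta also induces, was at 94.98 CPM in Epcam-negative and 28.6 CPM in Epcam-positive cells. All these lists are described by counts and medians only, and nothing particular to a list was tested. Of all 9574 measured genes, 15.3% passed the 2-fold line towards Epcam-negative cells and 12.9% towards Epcam-positive cells. Their median log2 ratio was -0.08. In lists with few measured genes, a count of 1 or 2 past the line cannot be set apart from these shares.

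**Figure D5:**
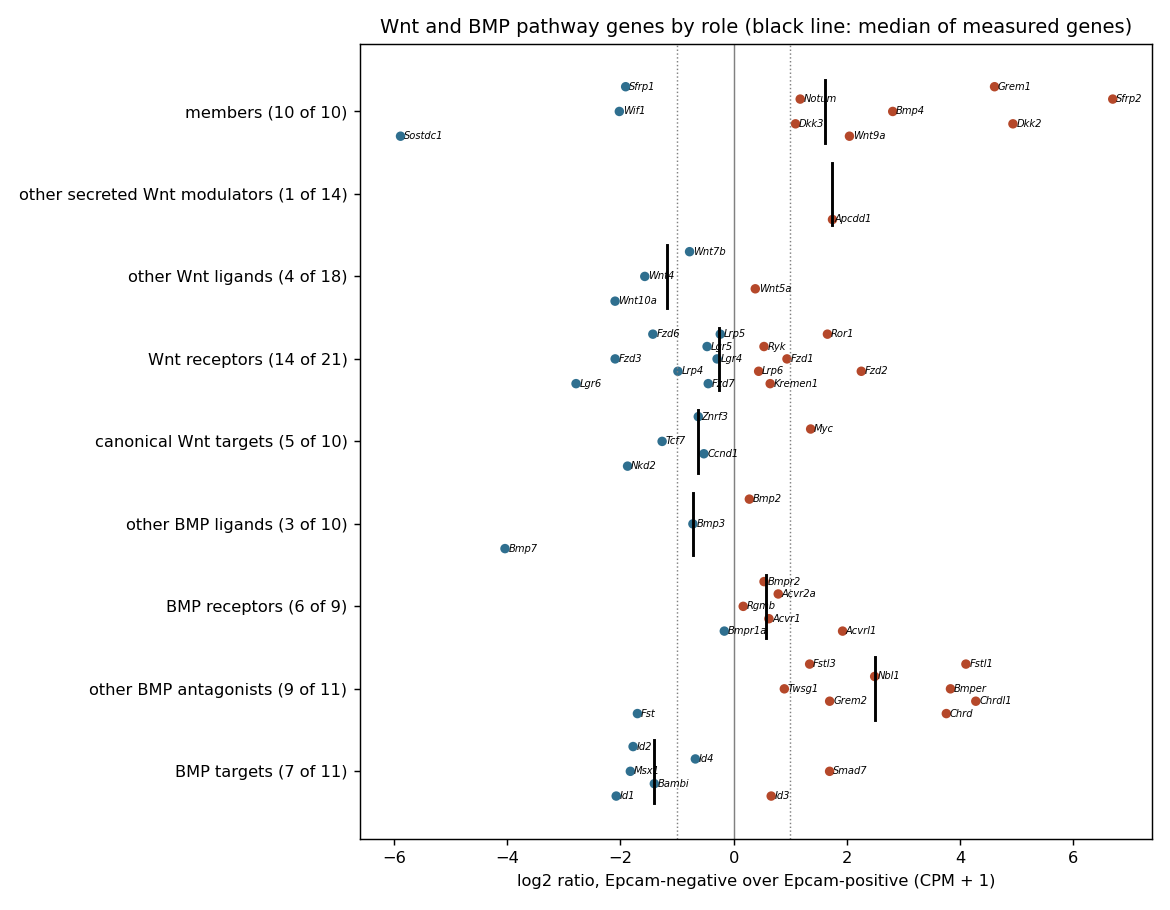
Log2 ratio of Epcam-negative over Epcam-positive summed levels for the 10 modulators (top row) and the other measured genes of both pathways by role, with the number measured of those listed; black lines are medians and dotted lines mark 2-fold. Other BMP antagonists have the highest median among the rows with more than 1 gene, 2.49, and BMP targets the lowest, -1.40.

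For each of the 10 genes present in at least 10% of the cells of the population where it was higher, which leaves out Wif1, the 3 genes with the most similar levels over those cells were found by Spearman correlation. Over all Epcam-negative cells and 7216 genes, Sfrp2 was most like Pdgfrl (0.54), Ctla2a (0.53) and the microfibril gene Mfap2 (0.53), and Dkk3 most like the small proteoglycan genes Aspn and Dcn (0.47 each) and Cercam (0.44). Dkk2 had Apcdd1 (0.38) first, Wnt9a had Bmp2 (0.35) first, Notum had Fth1 (0.40) first and Grem1 had the protease inhibitor gene Slpi (0.41) first. The genes most like Bmp4 were Cfap300 (0.40) and Cep126 (0.38), neighbours on chromosome 9 (8021672 to 8042823 and 8076461 to 8134294), and Wfdc2 (0.37). Over 62 Epcam-positive cells and 7142 genes, Sfrp1 was most like App (0.57), Fxyd3 (0.56) and Abca1 (0.52), and Sostdc1 most like Cyhr1 (0.47), Apip (0.45) and Kdelr1 (0.44). All these are the highest coefficients out of 7216 or 7142 genes. Whether ranking so many genes would give values of this size without any link was not tested. Bmp4 and Grem1 levels in Epcam-negative cells also moved with the number of genes detected per cell, with Spearman values of 0.38 and 0.31, and the part of this in their likeness lists was not tested.

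Several of these genes are known from fibroblasts and dermal papilla cells as well as from epithelium. The 6 dermal fibroblast markers summed to 5589 CPM in Epcam-negative and 2792 CPM in Epcam-positive cells, of which Ly6a gave 1498 CPM in Epcam-negative and 2697 CPM in Epcam-positive cells. The other 5 summed to 4091 CPM in Epcam-negative and 95.7 CPM in Epcam-positive cells. At least 2 of the 6 were present in 82.5% of Epcam-negative and 16.1% of Epcam-positive cells, and Pi16 was at 0 in Epcam-positive cells. These shares count Ly6a, itself present in 87.8% of Epcam-negative and 85.5% of Epcam-positive cells. The others were uneven, with Dcn present in 79.1%, Pdgfra in 60.1%, Dpt in 24.0%, Lum in 7.98% and Pi16 in 0% of Epcam-negative cells. In Epcam-positive cells Dcn was present in 12.9% and Pdgfra in 9.68%, and Dpt, Lum and Pi16 in 0%. Per cell the sum of these 6 ran to 41849 CPM, the highest, in Epcam-negative cells and 8505 CPM in Epcam-positive cells. Of the 6 dermal papilla markers, which summed to 484 CPM in Epcam-negative and 38.6 CPM in Epcam-positive cells, only Vcan was measured, Fgf7 and Fgf10 were at 0 in Epcam-positive cells, and Corin was at 0.0373 CPM in Epcam-negative and 0.242 CPM in Epcam-positive cells. Pericyte markers summed to 61.6 CPM in Epcam-negative and 20.9 CPM in Epcam-positive cells, where Rgs5, Kcnj8 and Abcc9 were at 0. Immune markers summed to 12.8 CPM in Epcam-negative and 10.3 CPM in Epcam-positive cells, with Ptprc, Itgam and Csf1r at 0 in Epcam-positive cells. Endothelial markers summed to 5.13 CPM in Epcam-negative and 15.7 CPM in Epcam-positive cells with Tek and Emcn at 0 in both, and melanocyte markers to 8.22 CPM in Epcam-negative and 7.89 CPM in Epcam-positive cells. The sort took YFP-positive cells only, and the part of other cell types in the levels above was not tested.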

How the data were processed

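The authors deposited raw counts of reads for genes and spike-ins in 383 wells; per the submitters' processing notes the tools were cutadapt 1.13, STAR 2.5.2b and HTSeq 0.6.0 with the build GRCm38. Neither the annotation release nor the strand setting is given in the sources used here. Of the gene identifiers, 49326 received a symbol and a position from GENCODE vM21, matched without version suffix, and 259 did not.

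Cells were kept with at least 100000 gene reads, at least 2000 genes, at most 20% mitochondrial reads and at most 50% spike-in reads. This kept 263 of 310 Epcam-negative and 62 of 70 Epcam-positive cells. Reads were summed per population and scaled to CPM. Ratios are log2 after adding 1 CPM, with conditional binomial intervals. Levels have exact Poisson and shares exact Clopper-Pearson intervals, all at 95%. Where a level is near or under 1 CPM, the added 1 CPM shrinks the ratio and narrows its interval. Without molecular identifiers, reads of 1 molecule can be counted repeatedly, and limits and the intervals of levels and ratios reflect counting error alone. Intervals of shares treat cells as independent draws. No interval covers differences between animals or tumours. For shares, each cell was thinned to 100000 gene reads, and a gene was present at 5 or more.

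Each population is 1 sample, so no test was run. The genes and lists were chosen with earlier results of these data known. Named genes are the 10 modulators, up to 4 measured genes of each list with the largest absolute ratio, any measured gene 2-fold against its list's median, and the 3 most similar genes of each modulator. Alternatives were other cell filters, edgeR 4.0.16 and DESeq2 1.42.0 scaling factors, spike-in scaling, other pseudocounts, parts of the plate, left-out cells and other presence limits. Wells with 0 or 50 cells entered no comparison. No doublet caller was used, since per the labels' protocols single cells were sorted with a doublet gate. Computations used Python 3.11.15. Ratios, their intervals and the Spearman correlation were tested on simulated data, and thinning and shares were not. The ratio simulation drew Poisson counts per population, without the gathering of reads in single cells seen here. One further allele that both populations carry is not reported here.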

Additional observations from a re-analysis of the deposited data

Results flagged for a closer look

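Wells outside the comparison held more reads of several modulators than the 0-cell well of the Epcam-negative sort. That well had 4018 gene reads in all, with 2 reads of Grem1 (498 CPM) and 1 read each of Dkk2 and Sostdc1 (248.9 CPM each), so that for these 3 genes its CPM was above that of the 50-cell well. In the well set up with 50 Epcam-negative cells, which had 154897 gene reads, Dkk3 was at 374.4 CPM, Grem1 at 219.5 CPM, Dkk2 at 77.47 CPM, Sfrp2 at 71.01 CPM, Sfrp1 at 58.1 CPM and Sostdc1 at 25.82 CPM. Single Epcam-negative cells, summed, had 454 CPM of Dkk3, 270.2 CPM of Grem1, 67.8 CPM of Dkk2, 236.7 CPM of Sfrp2, 29.3 CPM of Sfrp1 and 4.29 CPM of Sostdc1. The Sfrp2 value of the 50-cell well came from 11 reads, with an exact Poisson interval of 35.5 to 127.1 CPM, and that of Sostdc1 from 4 reads, with an interval of 7.04 to 66.1 CPM, so that neither interval covered the summed single cells. These intervals cover the counting of reads and not which 50 cells fell in the well, so they cannot show a disagreement. Notum had 0 reads in that well, which allows up to 19.4 CPM when 3 reads are taken as the limit.

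In the 0-cell well of the Epcam-positive sort, Dkk3 was at 171.3 CPM, Sostdc1 at 151.1 CPM and Sfrp1 at 50.38 CPM, from 17, 15 and 5 reads. Krt14 had 896 reads there. The values of that well were not used elsewhere.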

How the results depend on the processing

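No paired analysis was possible because each population is 1 sample and replicate numbers only name cells. The counts of genes past 2-fold, 7 towards Epcam-negative and 3 towards Epcam-positive cells, became 5 and 3 with spike-in scaling, 6 and 3 with a pseudocount of 10 CPM and 6 and 2 in plate columns 1 to 12, and were 7 and 3 in the other 10 of 13 alternatives. In plate columns 1 to 12 the 6 genes include Wif1, while Notum (0.895) and Dkk3 (0.999) fell under the 2-fold line. The only reversed direction was that of Wif1, at 1.28 in plate columns 1 to 12. Dkk3 ranged from 0.74 to 1.26 and passed 2-fold in 11 of 13 alternatives, and Notum ranged from 0.62 to 1.80 and passed in 10; the other 8 passed in all 13, Wif1 once on the opposite side. Scaling shifted log2 ratios by 0.13 (TMM), 0.11 (median of ratios) and -0.35 (spike-in). Leaving out the Epcam-positive cell with most Col1a1, chosen after seeing the data, kept every direction. The list median of Wnt receptors turned to 0.49 at a minimum of 50 CPM. That of other BMP ligands turned to 0.21 with no minimum, the value of Bmp6, from 27 Epcam-negative and 2 Epcam-positive reads. At 50 CPM it was -4.04, the value of Bmp7, the only one of these ligands left. Without a change of side, other BMP antagonists moved to 1.70 with no minimum and 1.69 at 50 CPM, BMP targets to -0.68 under both, other Wnt ligands to -0.20 with no minimum, and the 10 modulators to 1.09 at 50 CPM; the cause was not tested. With no minimum, 8.36% of genes were past 2-fold towards Epcam-positive cells. At presence limits of 1 and 20 thinned reads, the share of Sfrp2 was 51.7% and 22.05% of Epcam-negative cells, that of Grem1 57.4% and 30.04% of Epcam-negative cells, that of Sostdc1 67.7% and 35.5% of Epcam-positive cells and that of Dkk3 94.7% and 60.1% of Epcam-negative cells. In Epcam-positive cells the values of Wif1, Notum, Bmp4, Dkk2, Sfrp2, Grem1 and Wnt9a rest on 5 or fewer cells with the gene present.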

Other observations

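A single Epcam-positive cell carried 7 of the 10 modulators, more than any other cell of its population, and was also the Epcam-positive cell with most Col1a1 (753 CPM). It had 246.4 CPM of Epcam, 7035 CPM of Krt14 and 3273 CPM of Vim, together with 871 CPM of Sostdc1, 524 CPM of Sfrp1, 333 CPM of Dkk3, 107.6 CPM of Grem1, 90.2 CPM of Dkk2, 69.4 CPM of Bmp4 and 65.9 CPM of Wnt9a. Sfrp2 and Wif1 had no read in it. It held 83.9% of the Epcam-positive reads of Dkk2 and 29.4% of those of Bmp4.

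Some pathway genes under the 10 CPM minimum, chosen after their values were seen, were nearly confined in reads to one population. Rspo1, which strengthens Wnt signals through Lgr receptors, was at 9.87 CPM in Epcam-negative cells and 0.201 CPM in Epcam-positive cells, where 1 cell held 80% of 5 reads. Sfrp4 was at 8.74 CPM in Epcam-negative cells, 67.7% of it in 1 cell, and had 1 read in Epcam-positive cells. The ligands Wnt3a and Wnt7a had 3 reads each (0.028 CPM) in Epcam-negative cells and were at 9.78 and 9.50 CPM in Epcam-positive cells. Their log2 ratios were -3.39 (-3.44 to -3.29) and -3.35 (-3.40 to -3.25). The added 1 CPM limits the size of these ratios and narrows their intervals.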
